A study of Mus musculus with 18 samples.

Results

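The genes described here are 40 genes of mitosis and the G2/M transition. The list holds mitotic cyclins, kinases, spindle, kinetochore and cytokinesis genes and was chosen with earlier results of these data known. Its genes were matched by symbol to the Ensembl gene identifiers of the deposited tables. They are 40 of 52636 genes listed, and all 40 were among the 16497 genes that passed the filter on low counts. Total RNA sequencing was done on mouse lung cells labelled as alveolar type 2, the surfactant-producing progenitors of the alveolus, in 18 libraries, 3 in each of 6 groups. Every group is listed as receiving LGK974, an inhibitor of the secretion of Wnt proteins. The CHIR group stayed in CHIR99201 (spelled as in the labels), a Wnt agonist in which the cells had been grown for 19 days. CHIR99201 had been removed for 24 h in a second group and for 48 h in the third. The WNT group received Wnt in its place, and the FZD5 agonist and FZD6 agonist groups received an agonist of 1 Frizzled receptor, FZD5 or FZD6. Treatment is given as lasting 8 to 12 h. The time without CHIR99201 before each replacement, the doses, and whether the libraries come from separate cultures or animals were not stated, and the p-values below therefore reflect variation among libraries alone, which may be technical.

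Cells enter mitosis when cyclin B and CDK1 become active, and the transcripts of the proteins that condense, attach, check and separate the chromosomes accumulate together late in the cycle. Their level in a bulk sample therefore tracks cycling cells. Known regulators of these genes are NF-Y, which binds CCAAT boxes, and the MuvB complex, which with B-MYB or FOXM1 binds CHR elements, short promoter sites that read TTTGAA or TTCGAA. In bulk RNA, fewer cycling cells and less mitotic RNA per cell cannot be told apart.

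RefSeq promoter windows (GRCm38.p6, from 250 bases before to 50 bases after the start) were found for 33 of the 40 genes. CCAAT, read on both strands and so also as ATTGG, was present in 25 of 33 windows (75.8%), against 38.6% of the windows of 10792 tested genes. TTTGAA, also read as TTCAAA, was present in 25 (75.8%, against 11.8%), and TTCGAA, its own reverse complement, in 3 (9.09%, against 2.01%). Both a CCAAT and a TTTGAA or TTCGAA were present in 23 windows (69.7%, against 5.75%). Nusap1, Birc5, Mad2l1, Nuf2 and Pttg1 held none of the 3. A match is a description of letters and not of a bound site. The 150 bases before the start are shown for 7 genes that carry these motifs and whose levels are given below. Pttg1, which carries none, is shown as well. Its levels differ from the rest, while Nusap1, Birc5, Mad2l1 and Nuf2 also carry none and follow the rest. A relation between motifs and levels was not tested. The RefSeq start used for Pttg1 lies 270 bases from the GENCODE start of the gene. Larger distances apply to Kif2c (3867 bases), Cdca8 (2394) and Kif4 (328), which are counted above as carrying motifs. Capitals mark the motifs on either strand. The windows are Mki67 at chr7:135716380-135716529 on the minus strand, Top2a at chr11:99024190-99024339 on the minus strand, Cdk1 at chr10:69352913-69353062 on the minus strand, Cdc20 at chr4:118437344-118437493 on the minus strand, Ube2c at chr2:164769779-164769928 on the plus strand, Ect2 at chr3:27153879-27154028 on the minus strand, Espl1 at chr15:102296143-102296292 on the plus strand, Pttg1 at chr11:43425982-43426131 on the minus strand.
Mki67: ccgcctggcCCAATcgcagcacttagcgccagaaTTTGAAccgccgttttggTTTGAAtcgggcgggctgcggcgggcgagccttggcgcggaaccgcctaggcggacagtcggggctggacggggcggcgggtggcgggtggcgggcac
Top2a: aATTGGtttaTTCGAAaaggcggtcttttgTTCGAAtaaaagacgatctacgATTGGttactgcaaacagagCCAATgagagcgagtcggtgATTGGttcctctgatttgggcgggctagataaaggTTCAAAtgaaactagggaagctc
Cdk1: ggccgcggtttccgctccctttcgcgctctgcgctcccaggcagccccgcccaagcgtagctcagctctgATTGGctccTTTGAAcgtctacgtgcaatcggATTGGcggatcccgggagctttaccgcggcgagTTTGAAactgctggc
Cdc20: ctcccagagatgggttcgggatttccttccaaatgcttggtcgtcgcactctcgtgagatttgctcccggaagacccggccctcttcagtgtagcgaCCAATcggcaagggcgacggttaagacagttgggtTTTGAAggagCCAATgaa
Ube2c: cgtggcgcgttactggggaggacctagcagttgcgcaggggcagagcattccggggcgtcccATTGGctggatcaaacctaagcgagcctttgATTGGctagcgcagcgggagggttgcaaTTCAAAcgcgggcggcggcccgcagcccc
Ect2: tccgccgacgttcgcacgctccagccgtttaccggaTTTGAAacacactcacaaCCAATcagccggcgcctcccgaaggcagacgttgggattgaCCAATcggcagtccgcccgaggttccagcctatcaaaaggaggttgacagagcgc
Espl1: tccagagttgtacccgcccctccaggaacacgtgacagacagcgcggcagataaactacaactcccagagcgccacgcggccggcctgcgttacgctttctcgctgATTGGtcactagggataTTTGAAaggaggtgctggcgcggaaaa
Pttg1: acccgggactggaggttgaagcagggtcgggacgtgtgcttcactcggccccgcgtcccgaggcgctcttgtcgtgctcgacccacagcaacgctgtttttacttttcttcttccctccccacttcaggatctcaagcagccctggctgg

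Total counts ranged from 31509607 to 52030066 per library. 4 libraries stood apart from the rest, with a median Pearson correlation of log2 CPM (counts scaled to library size) with the others of 0.927 (CHIR 1), 0.945 (CHIR 3), 0.782 (24 h withdrawal 2) and 0.950 (FZD6 agonist 1), against 0.966 to 0.982 in the other 14. The surfactant transcript Sftpc, which defines alveolar type 2 cells, was at 93166 to 144814 CPM in these 4 and at 36668 to 53788 CPM in the others. The club cell transcript Scgb1a1 was at 50.7, 38.6 and 79.8 CPM in CHIR 3, 24 h withdrawal 2 and FZD6 agonist 1, and under 1 CPM in the remaining libraries. The part of these differences in the results below was not tested. None of the 4 belongs to the groups of 48 h withdrawal, WNT or the FZD5 agonist.

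The summed level of the 40 genes was 5056, 4367 and 767 CPM in the CHIR libraries and 2969, 535 and 3374 CPM after 24 h of withdrawal. It was 1232, 1608 and 1487 CPM after 48 h. With Wnt it was 1884, 1591 and 1612 CPM, with the FZD5 agonist 2846, 3634 and 3218 CPM, and with the FZD6 agonist 1278, 3623 and 3221 CPM. All 3 FZD5 agonist libraries lay above all 48 h and WNT libraries. Within each of the remaining 3 groups 1 library lay far below the other two, namely CHIR 3, 24 h withdrawal 2 and FZD6 agonist 1, and all 3 are among the 4 that stood apart.

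**Figure D1:**
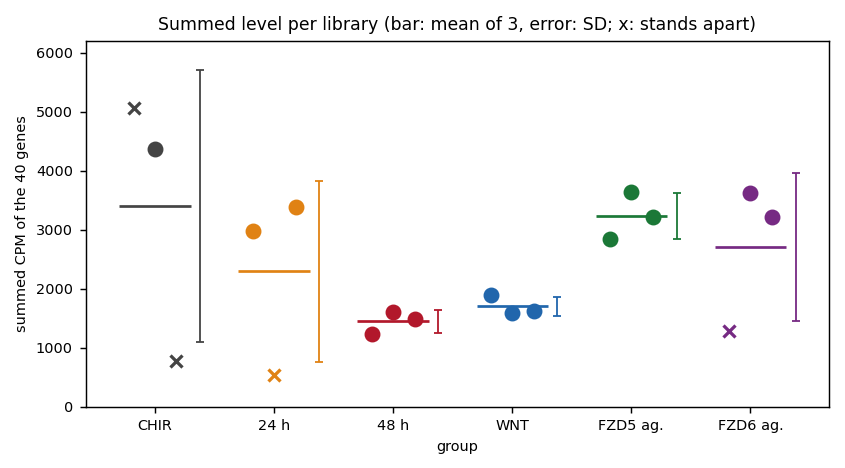
Summed CPM of the 40 genes (vertical axis) in each library by group, with crosses for the 4 libraries that stood apart, horizontal bars for group means of 3 libraries and error bars for the SD. The 3 FZD5 agonist libraries (2846 to 3634 CPM) lie above all 48 h withdrawal and WNT libraries (1232 to 1884 CPM).

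The test set for every comparison was edgeR's quasi-likelihood test in 1 fit of all 18 libraries, with Benjamini-Hochberg adjusted p under 0.05. It called 0 of the 40 genes in each of the 12 comparisons. In that fit the FZD5 agonist was higher than 48 h withdrawal by a median log2 fold change of 1.22 over the 40 genes, with 4 of 40 at an unadjusted p under 0.05, and 0 of all 16497 genes were called (0.0% higher, 393 at an unadjusted p under 0.05). DESeq2 on the same libraries called 0 of the 40 in that comparison (background 0.133% higher). This fit takes 1 estimate of the spread per gene from all groups, including those whose libraries differ most. Fits of only the 2 groups compared, listed as an alternative at the outset, use no library outside the comparison and leave none out. Their results are given next for the 3 groups in which no library stood apart, and each count from them stands beside the 0 of the 18-library fit.

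The FZD5 agonist gave higher levels than 48 h of withdrawal for 39 of the 40 genes in the fit of these 2 groups, where 6.89% of 15031 tested genes were called higher. The median log2 fold change of the 40 was 1.22, from 0.14 to 1.51, and the median over all tested genes was 0.00. The 3 FZD5 agonist libraries lay above the 3 libraries of 48 h withdrawal in 39 of 40 genes (16.8% of all tested genes). Leaving out 1 library at a time, this fit called 35 to 39 of the 40. A fit of all groups without CHIR 1, CHIR 3 and 24 h withdrawal 2, under a limit described below, called 20 of the 40 (597 of 17588 tested genes in either direction).

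Among the proliferation markers, all 4 genes were called. Mki67, which coats mitotic chromosomes, was at 51.2, 64.8 and 60.7 CPM after 48 h of withdrawal and at 119, 163 and 131 CPM with the FZD5 agonist (log2 fold change 1.22, SE 0.13, adjusted p = 0.00101 by edgeR in the fit of 2 groups). Top2a, the topoisomerase that untangles sister chromatids, was at 66.7, 83.6 and 76.8 CPM and at 149, 208 and 172 CPM. Neither gene's groups overlapped. Hmmr, a spindle-associated protein, shared with Cdca8 the smallest adjusted p of the 40 as printed (log2 fold change 1.42, SE 0.11, adjusted p = 0.000204 by edgeR).

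All 6 genes of entry into mitosis were called, between 1.15 and 1.31. Cdk1, the kinase that drives mitotic entry, was at 42.2, 56.1 and 46.3 CPM after 48 h and at 100, 115 and 108 CPM with the agonist. Its cyclin partner Ccnb1 was at 4.71, 5.75 and 5.66 CPM and at 11.2, 13.4 and 13.0 CPM. Foxm1, the transcription factor of the late cell cycle, was at 22.8, 31.5 and 30.5 CPM and at 56.8, 77.9 and 68.1 CPM (log2 fold change 1.25, SE 0.15, adjusted p = 0.00163 by edgeR). In all 3 genes the agonist libraries lay above the withdrawal libraries. Foxm1 shares exons on its own strand with Tex52, so its counts are less certain.

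All 6 genes of spindle assembly were called (1.12 to 1.33). Plk1, the kinase that matures centrosomes, was at 25, 39.1 and 35.7 CPM after 48 h and at 63.2, 93.0 and 79.1 CPM with the agonist. All 4 genes of the chromosomal passenger complex, which corrects faulty attachments, were called. Birc5, its survivin subunit, was at 29.1, 37.5 and 33.3 CPM and at 67.5, 75.5 and 73.2 CPM, and Cdca8, the borealin subunit, was called at the same adjusted p as Hmmr (log2 fold change 1.37, SE 0.11, adjusted p = 0.000204 by edgeR). The scaffold Incenp differed least within the complex (0.80). These groups did not overlap in Plk1 or Birc5.

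All 5 checkpoint genes were called, over a wide range. Bub1, a kinase of unattached kinetochores, was at 26.8, 32.0 and 35.7 CPM after 48 h and at 71.0, 98.3 and 96.6 CPM with the agonist (log2 fold change 1.49, SE 0.15, adjusted p = 0.000942 by edgeR). Bub3, its binding partner, was at 109, 124 and 119 CPM and at 144, 138 and 146 CPM (log2 fold change 0.27, SE 0.07, adjusted p = 0.0353 by edgeR). The Bub3 groups did not overlap, and the difference was the smallest among the 39 genes called.

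All 5 centromere and kinetochore genes were called. Cenpa, the histone variant of the centromere, was at 20.3, 23.7 and 19.2 CPM and at 46.1, 54.2 and 57.0 CPM. Cenpf, a kinetochore protein, had the largest difference of the 40 (log2 fold change 1.51, SE 0.12, adjusted p = 0.000234 by edgeR). All 6 genes of the central spindle and cytokinesis were called. Among them Kif20a, a motor of the central spindle, was at 18, 27.9 and 22.9 CPM and at 51.9, 64.7 and 55.2 CPM. Neither Cenpa nor Kif20a overlapped between the groups.

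Of the 4 genes of anaphase and ubiquitination, 3 were called. Cdc20, the activator of the anaphase-promoting complex, was at 108, 130 and 147 CPM after 48 h and at 282, 421 and 324 CPM with the agonist (log2 fold change 1.41, SE 0.17, adjusted p = 0.00255 by edgeR). Cdc20 was also the most abundant of the 40 per transcript length in both groups, at 59.9 ± 9.29 RPKM (SD, n = 3) and 166 ± 31.4 RPKM. Ube2c, a ubiquitin-conjugating enzyme that works with the anaphase-promoting complex, was at 21.2, 31 and 27.2 CPM after 48 h and at 59.4, 70.2 and 67.6 CPM with the agonist. Espl1, the separase that cuts cohesin, was at 12.9, 17.4 and 23.5 CPM and at 29.1, 50.1 and 42.4 CPM (log2 fold change 1.17, SE 0.28, adjusted p = 0.0433 by edgeR). Neither gene's groups overlapped, and Espl1 had the largest adjusted p of the 39 genes called. Pttg1, the securin that restrains separase, was the single gene not called, at 22.4, 23.1 and 20.7 CPM and at 26.0, 21.6 and 25.7 CPM (log2 fold change 0.14, SE 0.10, adjusted p = 0.422 by edgeR). Its libraries overlapped.

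Summed levels of some cell type marker lists also differed between the FZD5 agonist and 48 h withdrawal, and several of these sums rest on few genes. The summed level of 8 club and secretory genes was 525 to 658 CPM after 48 h and 141 to 355 CPM with the agonist, without overlap. The median of the 8 genes was 0.386 CPM or less in each of these libraries, so the sum does not describe the list. Of the 4 tested, 1 was called lower, Scgb1a1 (log2 fold change -1.73, adjusted p = 0.0353 by edgeR). It was under 1 CPM in both groups and adds almost nothing to the sum. The sum of 8 haematopoietic genes was 242 to 425 CPM and 982 to 1145 CPM, also without overlap. The median of these genes was 0.042 CPM or less in each library, so this sum too does not describe its list. Of the 2 tested, Lyz1, a lysozyme, was called higher (1.77, adjusted p = 0.00547 by edgeR), while Ptprc, the pan-leukocyte antigen, was at 0.0729 CPM or less in these libraries. The sum of 9 ciliated genes was 55.9 to 63.5 CPM and 67.4 to 74.7 CPM, with a median gene at 0.819 CPM or less in each library. Of 6 tested, 1 was called higher, Tubb4b, a tubulin (0.39). Among 11 alveolar type 2 genes 4 were called higher, Etv5 (1.02), Sftpa1 (0.85), Lyz2 (0.44) and Lamp3 (0.34), and Sftpc was not (0.05), with sums of 80939 to 88205 CPM and 79759 to 96133 CPM. The sum of 10 alveolar type 1 genes was 7879 to 8715 CPM and 6260 to 8055 CPM, with Akap5 called higher (adjusted p = 0.0387 by edgeR) and Aqp5 lower (-0.38). Summed basal, neuroendocrine, mesenchymal and endothelial markers were each at 1.60 CPM or less in both groups. The part of these differences in the levels of the 40 genes was not tested.

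**Figure D2:**
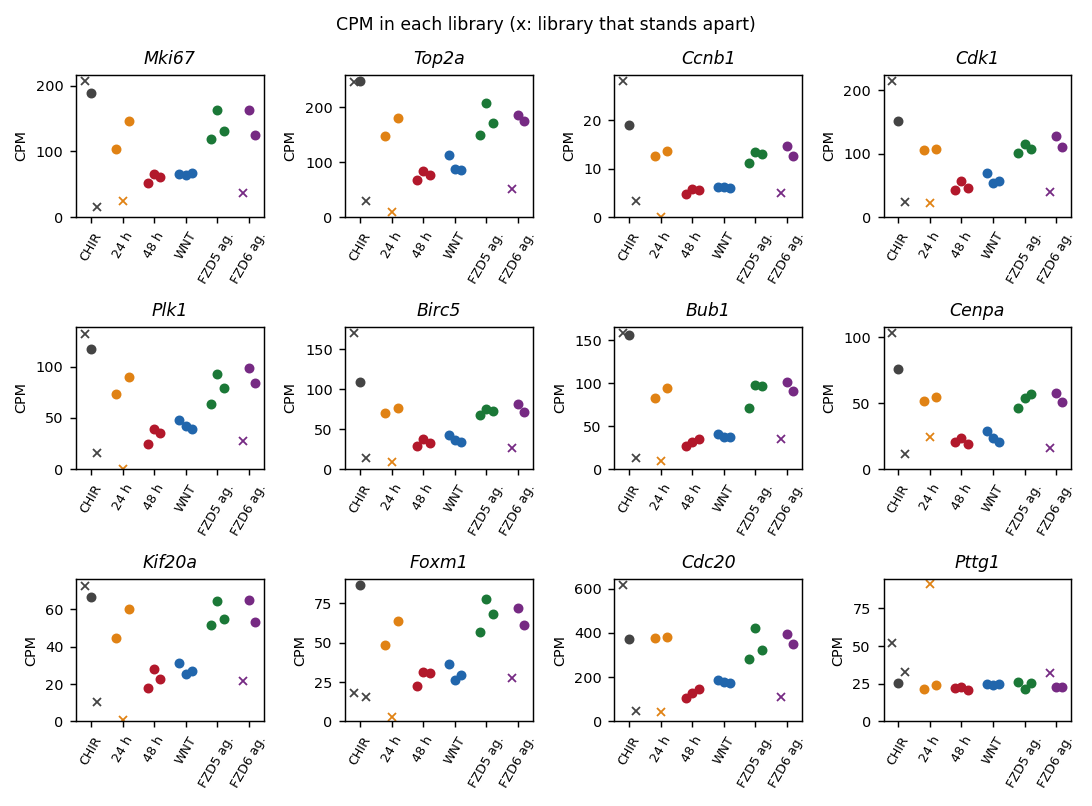
CPM (vertical axes, each from 0) of 12 genes in every library by group, with crosses for the 4 libraries that stood apart. In every panel but Pttg1 the FZD5 agonist points lie above the 48 h withdrawal points.

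Wnt did not give a called difference from 48 h of withdrawal. The fit of the 2 groups called 0 of 40 genes (0 of 15183 tested, 0.0%), with 11 of the 40 and 1546 of all genes at an unadjusted p under 0.05, and DESeq2 on 18 libraries called 0 as well. The fitted difference was above 0 in all 40 genes, with a median log2 fold change of 0.20 (0.05 to 0.49), and the 95% intervals of all 40 lay within a 2-fold difference in either direction. Cdc20 was nearest to a call, at 188, 180 and 172 CPM with Wnt against 108, 130 and 147 CPM (log2 fold change 0.49, 95% interval 0.27 to 0.72, adjusted p = 0.319 by edgeR). Its 2 groups did not overlap, as in 9 of the 40 genes (7.42% of all tested genes). Mki67 was at 66.0, 63.7 and 67.3 CPM with Wnt and overlapped the withdrawal libraries. Axin2, a Wnt feedback gene, was at 0.384, 0.373 and 0.238 CPM with Wnt and at 0.413, 0.771 and 0.167 CPM after 48 h. With the FZD5 agonist it was at 4.94, 2.88 and 2.95 CPM. The part of this difference in the levels of the 40 genes was not tested.

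The FZD5 agonist was higher than Wnt in 38 of 40 genes in the fit of these 2 groups (6.75% of 15303 tested genes higher; 0 of 40 in the 18-library fit, 0.0%). The median log2 fold change was 0.96. Ect2, the exchange factor that triggers furrowing, was at 57.6, 51.4 and 47.3 CPM with Wnt and at 106, 129 and 119 CPM with the agonist (log2 fold change 1.18, SE 0.10, adjusted p = 0.000261 by edgeR). Bub3 (0.24, adjusted p = 0.0615) and Pttg1 (-0.01, adjusted p = 0.955) were not called by edgeR. The comparisons of the FZD5 agonist with Wnt and with 48 h withdrawal share the agonist libraries. Leaving out 1 library at a time, the fit called 34 to 38 genes. The fit of all groups without CHIR 1, CHIR 3 and 24 h withdrawal 2 called 7 of the 40 (710 of 17588 tested genes in either direction).

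**Figure D3:**
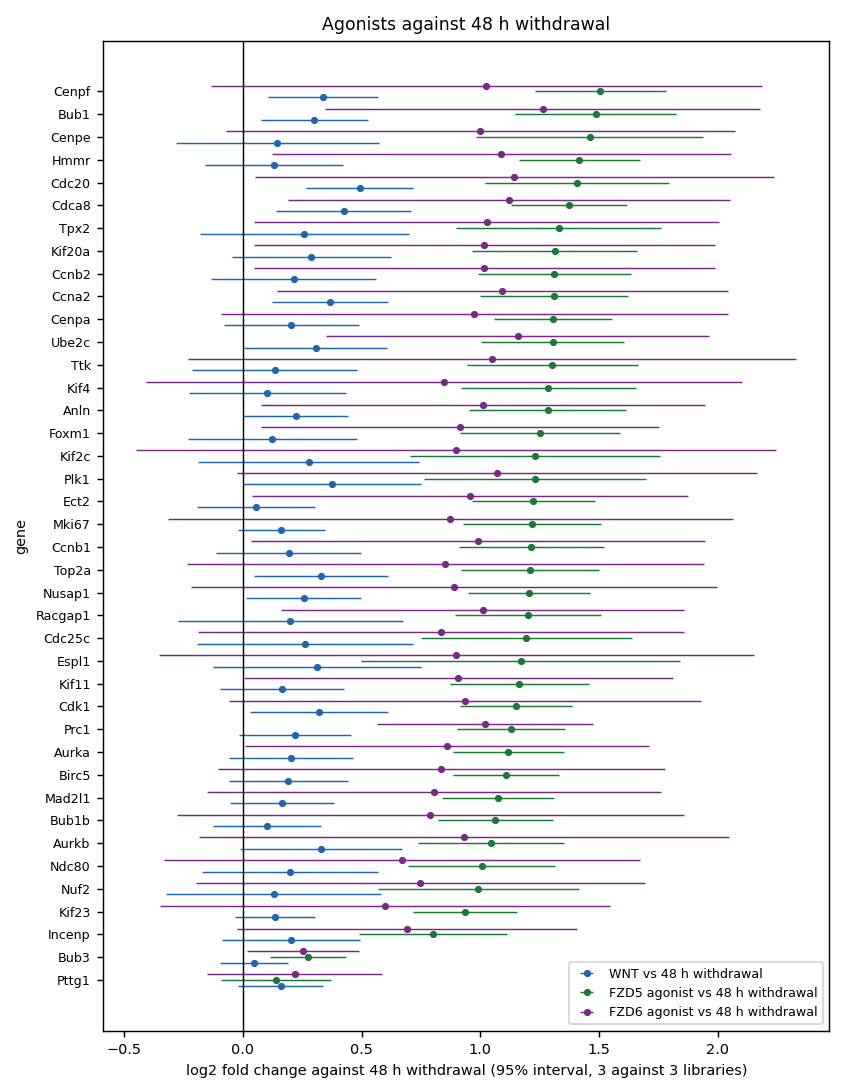
Log2 fold change against 48 h withdrawal (horizontal axis) of each of the 40 genes, with 95% intervals, from fits of 3 against 3 libraries with none left out. FZD5 agonist points lie near 1.22, WNT points near 0.20, and FZD6 agonist points near 0.93 with wide intervals, 22 of which include 0.

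The 3 FZD6 agonist libraries differed widely from each other. Neither the 18-library fit nor the fit of the 2 groups called any of the 40 genes against 48 h withdrawal. Mki67 was at 36.5, 163 and 126 CPM, Bub1 at 35.5, 101 and 90.9 CPM and Cdc20 at 109, 395 and 350 CPM. In each gene FZD6 agonist 1 lay below or within the range of 48 h withdrawal, and libraries 2 and 3 lay with the FZD5 agonist. The fit of 2 groups gave a median log2 fold change of 0.93 and called 0 of 40 (0.0121% of tested genes higher in the 18-library fit, 0.113% of 15097 tested genes higher, 18 of the 40 and 2483 of all genes at an unadjusted p under 0.05). The FZD6 agonist libraries all lay above the 48 h libraries in 3 of the 40 genes, against 13.2% of all tested genes.

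The counts for this comparison change with the treatment of FZD6 agonist 1. The exclusion limit listed at the outset, a median Spearman correlation under 0.96, removed CHIR 1, CHIR 3 and 24 h withdrawal 2 and kept FZD6 agonist 1, at 0.961. With those 3 libraries left out, 4 of 40 genes were called, Prc1, Ube2c, Bub1 and Cdca8 (3.25% of 17588 tested genes higher). Exchanging Spearman for Pearson correlation at the same limit also removes FZD6 agonist 1, and then 39 of 40 were called (7.42% of 17433 tested genes higher, median log2 fold change 1.32). That exchange was made after the first limit had kept the library and with its low level of these genes already known, so the 39 calls are given as a description of FZD6 agonist 2 and 3 and not as a test of the agonist. Between the FZD5 and FZD6 agonists 0 of the 40 genes were called in the fit of 2 groups (0 of 15201 tested genes higher, 0.0%, 244 at an unadjusted p under 0.05), and only 6 of the 40 intervals lay within a 2-fold difference.

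In the withdrawal comparisons too, libraries of 1 group lay far apart. Bub1 was at 158, 156 and 12.9 CPM in the CHIR group, at 82.4, 9.16 and 95 CPM after 24 h and at 26.8, 32.0 and 35.7 CPM after 48 h. Cdk1 was at 215, 151 and 23.7 CPM, at 106, 21.5 and 107 CPM and at 42.2, 56.1 and 46.3 CPM. Foxm1 was at 18.2, 86.2 and 15.3 CPM in the CHIR group, so that CHIR 1, the highest library for Cdk1, was low for Foxm1. CHIR 3 and 24 h withdrawal 2 lay below every 48 h library in both Bub1 and Cdk1.

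In the 18-library fit, 48 h of withdrawal differed from CHIR by a median log2 fold change of -1.30 and 0 of 40 were called (1.1% of tested genes higher and 1.49% lower, 11 of the 40 and 2715 of all genes at an unadjusted p under 0.05). DESeq2 called 2 of 40 lower (4.59%). With the 3 libraries of low Spearman correlation left out, 39 of 40 were called lower (8.0%), with a median of -1.66, but the CHIR group is then CHIR 2 alone, which is assumed to vary like the other groups. Bub1 had a log2 fold change of -2.29 there (SE 0.36, adjusted p = 0.00127 by edgeR). Pttg1 was the gene not called. Between 48 h and 24 h of withdrawal the median was -0.63, with 0 of 40 called (0.0424% higher and 0.00606% lower, 2973 of all genes at an unadjusted p under 0.05), and 15 of 40 were called lower in the same 15 libraries (3.08%), where the median was -1.14. Between 24 h and CHIR 0 of 40 were called in both fits (0.0% and 0.0227% lower, with 2809 and 1763 of all genes at an unadjusted p under 0.05).

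Wnt was lower than CHIR by a median log2 fold change of -1.05 with 0 of 40 called (0.873% higher and 1.05% lower), and 27 of 40 were called without the 3 libraries (6.74%). The median was then -1.41. For the FZD5 agonist against CHIR the median was -0.14 in the 18-library fit, with 17 genes fitted higher and 23 lower, and -0.44 without the 3 libraries, with all 40 fitted lower. Neither fit called any of the 40 (0.0% and 0.841% lower). For the FZD6 agonist against CHIR the medians were -0.36 and -0.73, again with 0 of 40 called in either fit (0.0% and 0.244% lower). The FZD6 agonist against Wnt had a median of 0.71 with 0 of 40 called (0.0%) and 1 of 40 without the 3 libraries (2.33%). These comparisons share their CHIR or WNT libraries.

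**Figure D4:**
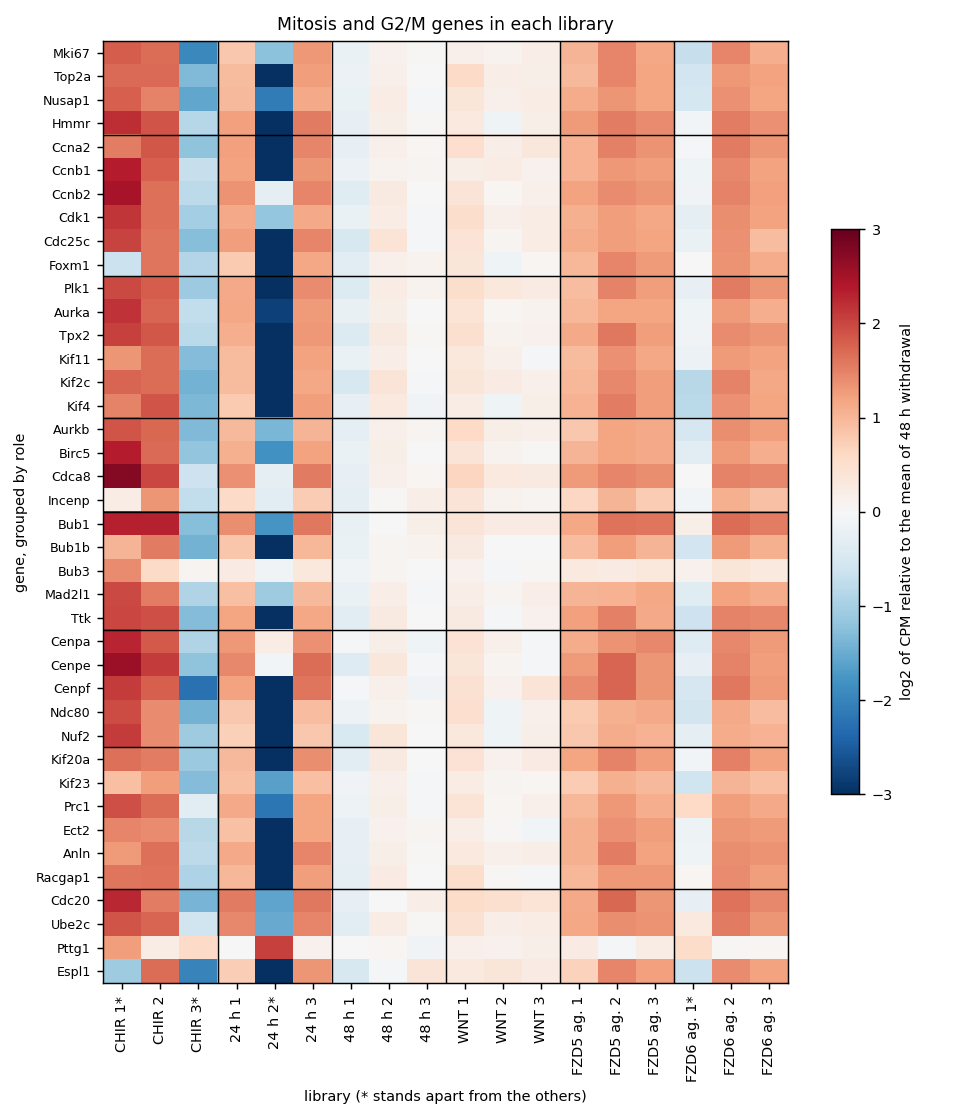
Log2 of CPM (0.1 added) relative to the mean of 48 h withdrawal, for each of the 40 genes (rows, grouped by role) in each library (columns, asterisks for the 4 that stood apart). CHIR 3, 24 h withdrawal 2 and FZD6 agonist 1 do not resemble the other libraries of their groups, and Pttg1 does not follow the other rows.

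Across the 14 libraries that did not stand apart, 39 of the 40 genes followed the median of the others closely (Pearson r of 0.947 or more as a description, over libraries that share their groups), and Pttg1 did not (0.23). Nusap1 (0.987), Birc5 (0.994), Mad2l1 (0.983) and Nuf2 (0.965), which carry none of the promoter motifs either, were among the 39. These 14 libraries were set by the exclusion added after seeing the data. Over all 18 libraries r was lowest for Pttg1 (-0.54), Bub3 (0.65), Cenpa (0.79) and Incenp (0.81), and highest for Aurka (0.992). Pttg1 was at 91.1 CPM in 24 h withdrawal 2, its highest library, where 8 of the 40 genes had 3 counts or fewer and Ccnb1 had none. Per transcript length, Bub3 was second of the 40 after 48 h of withdrawal (21.9 ± 1.69 RPKM, SD, n = 3) and rank 12 with the FZD5 agonist (27.7 ± 1.19 RPKM).

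Neighbouring lists, chosen with earlier results of these data known, were counted in the fit of the FZD5 agonist against 48 h withdrawal, where 6.89% of tested genes were higher. Of 64 other mitotic genes 55 were called higher (median log2 fold change 1.05), among them Cep55 (1.29), which completes abscission. All 8 condensin genes were called (0.93), and 22 of 36 DNA replication genes (0.60). Of 17 genes of the anaphase-promoting complex and its regulators 2 were called, Anapc15 and Fbxo5, and of 19 MuvB, Rb and E2F regulators 5, among them Mybl2, which encodes B-MYB (0.97). Of 7 genes of CDK1 control 4 were called, including Wee1 (0.89), the kinase that restrains CDK1. A list of 11 G1 cyclins, kinases and Myc genes had 2 called, Mycn (1.13) and Myc (0.70), and no cyclin or kinase. Its cyclin Ccnd1 was at 108, 114 and 106 CPM after 48 h and at 83.3, 107 and 99.8 CPM with the agonist. Of 6 CDK inhibitors 1 was called, Cdkn2c (0.58). The inhibitor Cdkn1a was not, at 142, 64.5 and 123 CPM after 48 h and at 128, 307 and 230 CPM with the agonist. No gene of these lists was called lower. With Wnt against 48 h withdrawal none was called in any of them. The 18-library fit called 0 genes of any list in the comparison of the FZD5 agonist with 48 h withdrawal.

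**Figure D5:**
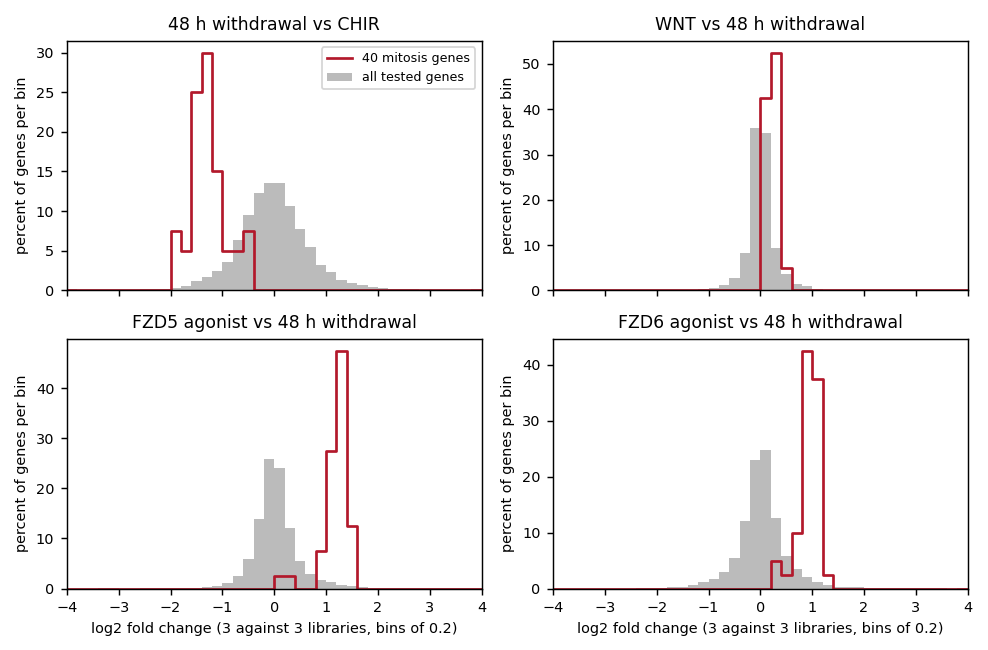
Share of genes (vertical axis, percent per bin of 0.2) by log2 fold change in 4 comparisons of 3 against 3 libraries, for all tested genes (grey bars) and the 40 genes (red line). The 40 genes lie to the right of most genes with the FZD5 agonist. With Wnt they lie close to 0, all of them above it.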

How the data were processed

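Reads were aligned with GSNAP to GRCm38, per the submitters' processing notes; the version, annotation, counter and strand setting were not given in the sources used here. A stranded library kit was used, per the labels. The authors deposited raw counts per gene, the gene width and RPKM for each library. RPKM was used only to compare genes. Symbols were matched to 99.7% of identifiers. CPM was computed on TMM-scaled library sizes. Genes were filtered with filterByExpr and tested with edgeR 4.0.16 (robust quasi-likelihood, all 18 libraries in 1 fit, adjusted p under 0.05), DESeq2 1.42.0 being an alternative (R 4.3.3). The edgeR fits were run on simulated counts with equal spread for every gene and no library that stood apart. Such counts do not show how the fits handle the libraries that stood apart here.

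Alternatives listed at the outset were DESeq2, RLE size factors, no filter, fits of only the 2 groups compared, a replicate block, leaving out libraries with a median Spearman correlation under 0.96 (a limit taken from earlier results), and leaving out each library. The exclusion of 4 libraries by Pearson correlation, its 2-group fits and the 2-group fits with 1 library left out were added after seeing the data. The Pearson measure was chosen after the Spearman limit had kept FZD6 agonist 1 and with that library's low level of these genes known. Fits of 2 groups were given most room in the report after all fits had been seen. The members and lists were chosen with earlier results of these data known. Values in every library were given for Mki67, Top2a, Ccnb1, Cdk1, Plk1, Birc5, Bub1, Cenpa, Kif20a, Foxm1 and Cdc20, and called genes of smallest adjusted p were given by fold change. Bub3, Incenp and Pttg1 were named for their size, and Ube2c and Espl1 for their promoter windows, after their values were seen. Ccna2, Cdc20, Cdc25c, Cdca8, Foxm1, Kif20a, Kif4, Nusap1, Plk1, Prc1, Top2a and Ube2c share exonic bases with another gene, so their counts are uncertain. Promoter motifs were searched on both strands. No pairing of the libraries by replicate number was seen.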

Additional observations from a re-analysis of the deposited data

How the results depend on the processing

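Members called, against 0 in the 18-library fit, were as follows. Brackets hold the number of all tested genes called in either direction, except where 1 library was left out. With DESeq2, 48 h withdrawal against CHIR gave 2 lower (1299 of 16497). Without the 3 libraries of low Spearman correlation the counts were 39 (48 h against CHIR), 15 (48 h against 24 h), 20 (FZD5 agonist against 48 h), 4 (FZD6 agonist against 48 h), 27 (WNT against CHIR), 7 (FZD5 agonist against WNT), 1 (FZD6 agonist against WNT) and 2 (WNT against 24 h). Without the 4 libraries, an exclusion added after seeing the data and with the level in FZD6 agonist 1 known, they were 5 (24 h against CHIR), 39 (48 h against CHIR), 39 (48 h against 24 h), 39 (FZD5 agonist against 48 h), 39 (FZD6 agonist against 48 h), 39 (WNT against CHIR), 11 (FZD5 agonist against CHIR), 2 (FZD6 agonist against CHIR), 39 (FZD5 agonist against WNT), 39 (FZD6 agonist against WNT) and 36 (WNT against 24 h). In fits of only the 2 groups the FZD5 agonist gave 39 higher against 48 h (1958 of 15031) and 38 higher against WNT (1998 of 15303). Without the 4 libraries, such fits gave 38 lower for 48 h against 24 h (3181 of 15365). They gave 38 lower for WNT against 24 h (2232 of 15696). The FZD6 agonist there gave 39 higher against 48 h (3283 of 15505) and 39 higher against WNT (2895 of 15625). Leaving out 1 library in the 18-library fit gave 0 to 7 for 48 h against CHIR (7 without CHIR 3), 0 to 5 for WNT against CHIR (5 without CHIR 3) and 0 in the other comparisons. WNT against 48 h and the FZD5 against the FZD6 agonist gave 0 in every fit run. With all 18 libraries, RLE size factors, no filter and the 24 h withdrawal group as the baseline each gave 0. The cause of the differences between fits was not tested. The replicate block gave 0 in every comparison. No pairing by number was seen in deviations from the group means: same-numbered libraries correlated from -0.52 to 0.47 and none correlated best with its own number. Deviations from means of 3 libraries are moved by those that stood apart, so this check cannot tell whether equal numbers mark shared cultures. Some log2 fold changes turned sign when 1 library was left out. Foxm1 in 48 h against CHIR ranged from -0.87 (without CHIR 3) to 0.77 (without CHIR 2). In 48 h against 24 h, Kif20a ranged from -1.20 to 0.024 and Foxm1 from -0.99 to 0.14 (without 24 h withdrawal 2 or 3). Foxm1 in WNT against 48 h ranged from -0.026 (without WNT 1) to 0.225 (without WNT 2) and was -0.016 without 48 h withdrawal 1. With 3 libraries a group, small differences such as those of Bub3 and Pttg1 are near what can be resolved.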
